A study of Homo sapiens with 9 samples.

Results

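The clustered replication-dependent histone genes encode the core histones H2A, H2B, H3 and H4 and the linker histone H1, which package newly made DNA. They were followed in MiaPaCa2, an established human pancreatic carcinoma line, after addition of the culture supernatant of naive pancreatic stellate cells. Members were the genes whose symbol on a probe set with 1 annotated symbol starts with H1-, H2AC, H2BC, H3C or H4C and a number. The rule found 50 genes on 58 probe sets, of 19775 genes and 54675 probe sets in all. A gene with several probe sets was represented by its brightest one on average.

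The exposed cells were harvested after 1, 2, 3, 4, 5, 6, 7 and 24 h, and 1 control was harvested at 24 h, each with 1 Affymetrix array and no replicate. All 9 samples are of the same line, from which total RNA was taken. The title of the control also names the treatment of the other samples, and the labels do not say what the control cells received. Values are log2 expression as deposited by the authors, so that a difference of 1 is a 2-fold change. The exposure times count back from harvest, so a sample with a shorter exposure received the supernatant later.

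Most of the 50 members fit the name given to the group. On the annotation used, 42 lie on chromosome 6, where the largest histone gene cluster is, 2 on chromosome 1, 3 on chromosome 3 and 1 each on chromosomes 12, 17 and 21. The members on chromosomes 3, 12, 17 and 21 are not genes of the known clusters: H1-10 and its antisense RNA H1-10-AS1 belong to a replication-independent linker histone locus, H1-8 is the oocyte linker histone, H1-7 and H1-9P are linker histone genes of the germ line, and H2BC12L is an H2B-like gene. Of the 50 members 46 are protein-coding, 3 are pseudogenes (H1-9P, H2AC5P and H4C10P) and 1 is the antisense RNA.

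Replication-dependent histone genes are transcribed mainly during S phase, when the coactivator NPAT works at their promoters. Their messages normally end in a stem-loop that is bound by SLBP, not in a poly(A) tail, and are destroyed quickly when replication stops. Some of them also make polyadenylated transcripts, which is known above all in cells that leave the cycle. Standard Affymetrix labelling starts from oligo(dT) and so reads mainly polyadenylated transcripts. The labels name that standard protocol without spelling out the priming, and the share of stem-loop messages in the levels below is not known.

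Histone promoters are short. Those of H2B genes are known for an octamer element read by the factor POU2F1, a CCAAT element and a TATA box, and many H2A and H2B genes lie back to back and share a promoter. The 5 windows below belong to genes that were lower in the exposed cells, and that of H2AC14, which was higher, is set beside them to compare the elements. Windows are those of RefSeq on GRCh38.p14, 250 bases before to 50 bases after the start, written 5′ to 3′ on the gene's strand. Capitals mark ATTTGCAT (the octamer), CCAAT and TATAAA, each on either strand, so that ATGCAAAT, ATTGG and TTTATA are marked too, and matches of TATAAA on opposite strands overlap at 1 place in H2BC12.
H2AC6 (chr6:26123922-26124221, plus strand): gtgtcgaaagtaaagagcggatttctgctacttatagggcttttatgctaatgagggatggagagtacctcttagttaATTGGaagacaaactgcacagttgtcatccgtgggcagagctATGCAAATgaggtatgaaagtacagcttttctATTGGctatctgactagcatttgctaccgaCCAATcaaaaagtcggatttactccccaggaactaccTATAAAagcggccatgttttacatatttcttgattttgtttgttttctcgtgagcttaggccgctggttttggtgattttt
H2BC12 (chr6:27146806-27147105, minus strand): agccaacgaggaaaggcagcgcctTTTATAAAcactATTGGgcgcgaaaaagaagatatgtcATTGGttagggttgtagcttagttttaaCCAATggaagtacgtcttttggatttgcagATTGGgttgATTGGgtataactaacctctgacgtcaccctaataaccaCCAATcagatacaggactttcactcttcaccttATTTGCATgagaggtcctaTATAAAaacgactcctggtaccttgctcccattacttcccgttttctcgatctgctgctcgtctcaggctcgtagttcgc
H2BC5 (chr6:26157871-26158170, plus strand): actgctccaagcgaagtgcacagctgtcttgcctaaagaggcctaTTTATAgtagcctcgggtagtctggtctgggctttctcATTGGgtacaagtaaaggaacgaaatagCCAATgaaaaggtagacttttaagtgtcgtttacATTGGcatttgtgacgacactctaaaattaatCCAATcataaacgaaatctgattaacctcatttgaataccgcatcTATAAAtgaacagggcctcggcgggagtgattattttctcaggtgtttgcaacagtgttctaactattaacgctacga
H2BC6 (chr6:26183511-26183810, plus strand): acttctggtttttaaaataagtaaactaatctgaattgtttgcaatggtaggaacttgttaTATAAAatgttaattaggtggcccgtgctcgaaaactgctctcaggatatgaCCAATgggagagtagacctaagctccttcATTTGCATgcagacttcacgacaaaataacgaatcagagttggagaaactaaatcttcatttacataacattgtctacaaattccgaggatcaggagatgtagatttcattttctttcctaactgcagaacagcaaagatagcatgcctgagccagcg
H2BC9 (chr6:26251364-26251663, plus strand): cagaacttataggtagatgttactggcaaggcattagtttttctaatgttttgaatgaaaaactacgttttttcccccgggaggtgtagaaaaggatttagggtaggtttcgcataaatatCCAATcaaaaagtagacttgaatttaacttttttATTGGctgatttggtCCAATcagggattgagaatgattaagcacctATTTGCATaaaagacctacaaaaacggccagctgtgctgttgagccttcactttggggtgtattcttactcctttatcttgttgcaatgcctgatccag
H2AC14 (chr6:27814728-27815027, minus strand): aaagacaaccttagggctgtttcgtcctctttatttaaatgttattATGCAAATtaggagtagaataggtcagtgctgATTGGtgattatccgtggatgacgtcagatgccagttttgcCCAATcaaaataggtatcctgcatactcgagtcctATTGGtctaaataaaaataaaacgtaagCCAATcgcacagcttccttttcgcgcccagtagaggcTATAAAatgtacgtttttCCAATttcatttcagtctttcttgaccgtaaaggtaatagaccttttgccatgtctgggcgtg

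A window was found for 43 of the 50 members, 19 of them among the genes tested. H2BC12L is among the 7 without one. The octamer was found in 10 of 13 H2B windows and in 6 of 8 H2A windows, but in none of the 9 H1, 6 H3 and 7 H4 windows, while 1.82% of 27305 windows of all genes hold it. CCAAT was found in 13 of 13 H2B windows, against 35.6% of all windows, and TATAAA in 11 of 13, against 12.1%. The other families held them too. CCAAT was in 8 of 8 H2A, 6 of 6 H3, 8 of 9 H1 and 2 of 7 H4 windows. TATAAA was in 5 of 8 H2A, 4 of 6 H3, 4 of 9 H1 and 4 of 7 H4 windows. Windows of back-to-back H2A and H2B genes cover the same DNA and are not independent. The octamer stood in windows of genes lower in exposed cells (H2AC6, H2BC12, H2BC6 and H2BC9) and in those of H2AC4 and H2AC14, which were higher, and these letters were not in the windows of H2BC5 and H1-3.

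Histone genes differed widely in level, and most were dim. Of the 50 members 20 had a mean of at least 5 over the 9 arrays and were tested, against 12402 of all 19775 genes. The tested members were 4 H1, 5 H2A, 6 H2B, 2 H3 and 3 H4 genes. The brightest probe set of each family was H2BC12 (mean 9.65), H2AC25 (8.77), H1-10 (8.52), H4C11 (7.48) and H3C8 (6.32), each on its own probe scale. The minimum of 5 fell between H1-6 (mean 5.07, tested) and H1-8 (4.97, not tested). The files used here hold no detection calls, so whether a dim probe set lies above background is not known.

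**Figure D1:**
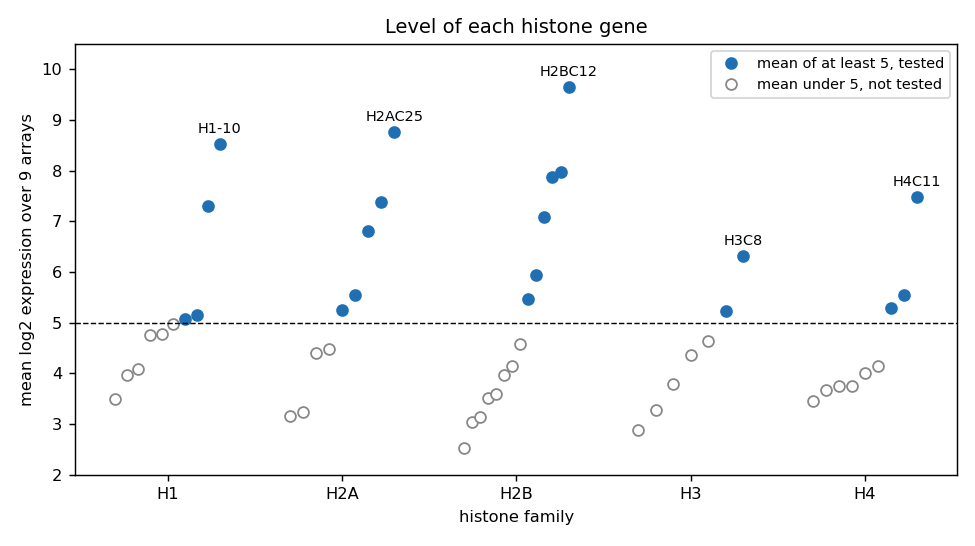
Mean log2 expression over the 9 arrays of each histone gene, by histone family (H1-10-AS1 is not drawn). Filled points are the 20 tested genes, open points those under the minimum, and the dashed line is the minimum of 5; the brightest gene of each family is named, from H2BC12 at 9.65 to H3C8 at 6.32.

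Many histone probe sets can read more than 1 gene, because the coding sequences of a family are nearly the same. Of the 20 tested members 7 rest on a probe set with the suffix _x_at, which Affymetrix gives to probes that can match unrelated or similar sequences, 3 on one with _s_at, 1 on one with _a_at and 9 on one with _at. The H2B genes H2BC5, H2BC6, H2BC9 and H2BC12L are all on _x_at probe sets, so their values are uncertain as values of 1 gene and may not be independent of each other. H2BC12 is on an _at probe set, and H2AC6 is on an _s_at probe set. Whether the H2AC6 probe set also reads other histone genes was not tested. The H2AC6 values are thus also uncertain as values of 1 gene. H2AC14, H3C8 and H4C11 are on _x_at probe sets too, with the same limit on their values.

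The arrays were of like scale, with medians between 4.92 and 4.97. The 5 h array and the control, on which every difference from the control rests, stood apart: their median correlations with the other arrays were 0.9906 and 0.9905, where the others had 0.9957 to 0.9968. The 5 h array's residual scatter about linear time courses had an SD of 0.165, where the 6 remaining hourly arrays had 0.0786 to 0.102. The 3′ minus 5′ signal of ACTB was 2.24 on that array and 1.59 to 1.97 on the 8 others. Of 5 markers listed for the line, KRT8, KRT18, VIM and CD44 were bright (10.98 or more on every array) and EPCAM was dim (2.48 to 2.81 in exposed arrays, against 2.29 in the control), and none passed in the hourly mean against the control. Of 12 stellate cell and fibroblast markers 7 were tested; COL1A2 (0.68) and COL3A1 (0.94) passed as higher, and the other 5 did not pass, from ACTA2 (-0.40) to DCN (0.41). The summed linear level of the list was 2307 to 2999 in the hourly arrays and 3235 at 24 h, against 1852 in the control, with COL1A2 as its brightest gene, while LUM and POSTN were dim on all arrays (2.12 to 3.11). Of 6 leukocyte markers 3 were tested, and LYZ alone passed, with 7.90 to 8.21 over the hourly arrays and 8.14 at 24 h, against 5.70 in the control. That list's summed level was 385.6 to 500.7 and 446.5, against 185.0, while the leukocyte marker PTPRC stayed dim (3.44 to 4.00 and 3.70, against 3.38). Of 6 endothelial markers TEK (0.45) and EMCN (0.38) passed as higher among 3 tested, with sums of 211.8 to 234.2 and 244.2, against 185.1. Of all genes tested 5.85% passed as higher in the hourly mean against the control. The part of the listed markers in the results below was not tested. In bulk RNA, fewer cells with a transcript and less of it per cell cannot be told apart.

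The first comparison asked which histone genes stood at another level after exposure, and set the mean of the 7 hourly exposed arrays against the control. An H2A gene and 5 of the 6 tested H2B genes were lower in the exposed cells, by 1.66-fold to 2.43-fold, and H1-3, H2AC4 and H2AC14 were higher, by 1.20-fold to 1.37-fold. No tested H3 or H4 gene passed. In limma's test 9 of the 20 members passed an adjusted p of 0.05, 3 as higher and 6 as lower. Of all 12402 genes 13.9% passed, 5.85% as higher and 8.02% as lower. At an unadjusted p under 0.05 there were 9 members too, against 30.2% of all genes. The median difference was -0.03 over the 20 members and -0.01 over all genes tested.

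H2AC6, an H2A gene known to make polyadenylated transcripts, differed most. Its log2 level was 7.00, 6.78, 6.61, 6.58, 6.25, 6.49 and 6.50 from 1 to 7 h and 7.25 at 24 h, against 7.88 in the control. Every exposed array lay below the control, and the 24 h array lay above all 7 hourly ones. The mean of the hourly arrays was lower by 2.43-fold (log2 difference -1.28 ± 0.14, SE; limma adjusted p = 0.00136).

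H2BC4, an H2B gene, lies back to back with H2AC6, with 246 bases between their starts, so both are read from the DNA printed for H2AC6. It was dim, with 3.84 to 4.41 over 1 to 7 h and 3.96 at 24 h, against 4.74 in the control. All 8 exposed arrays lay below the control also for this gene. With a mean of 4.15 it was not tested, and in the fit with no minimum it was lower by 0.64 ± 0.16 on the log2 scale (limma adjusted p = 0.0467).

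H2BC12, the brightest H2B gene here, had 9.68, 9.54, 9.39, 9.53, 9.27, 9.53 and 9.55 over 1 to 7 h and 9.92 at 24 h, against 10.41 in the control. The order was that of H2AC6, with the control highest, the 24 h array next and all hourly arrays below. The difference was -0.91 ± 0.13 (1.88-fold lower; limma adjusted p = 0.00353).

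H2BC12L, the H2B-like gene outside the clusters, had 7.95, 7.86, 7.79, 7.90, 7.56, 7.84 and 8.002 from 1 to 7 h and 8.07 at 24 h, against 8.76 in the control (-0.92 ± 0.14; limma adjusted p = 0.00520). H2BC5 had 7.90, 7.90, 7.69, 7.81, 7.47, 7.64 and 7.70 and then 8.27 at 24 h, against 8.53 in the control (-0.80 ± 0.12; limma adjusted p = 0.00441). Both genes had all hourly arrays below the 24 h array and that below the control. A second probe set of H2BC5 lay at 7.09 to 7.46 over the hourly arrays and 7.49 at 24 h, against 8.03 in the control, a difference of -0.67 for the hourly mean.

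H2BC6 had 7.05, 7.05, 6.90, 7.00, 6.78, 7.05 and 7.16 over 1 to 7 h and 7.10 at 24 h, against 7.75 in the control (-0.76 ± 0.13; limma adjusted p = 0.00697). H2BC9 had 5.95, 5.83, 5.72, 5.94, 5.69, 5.84 and 5.88 and then 6.02 at 24 h, against 6.56 in the control (-0.73 ± 0.11; limma adjusted p = 0.00444). In each of these 5 H2B genes and in H2AC6 the 5 h array was the lowest of the hourly ones. It was the lowest hourly array for 12 of the 20 tested members, against 38.7% of all genes tested, and without it the same 6 genes passed as lower.

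**Figure D2:**
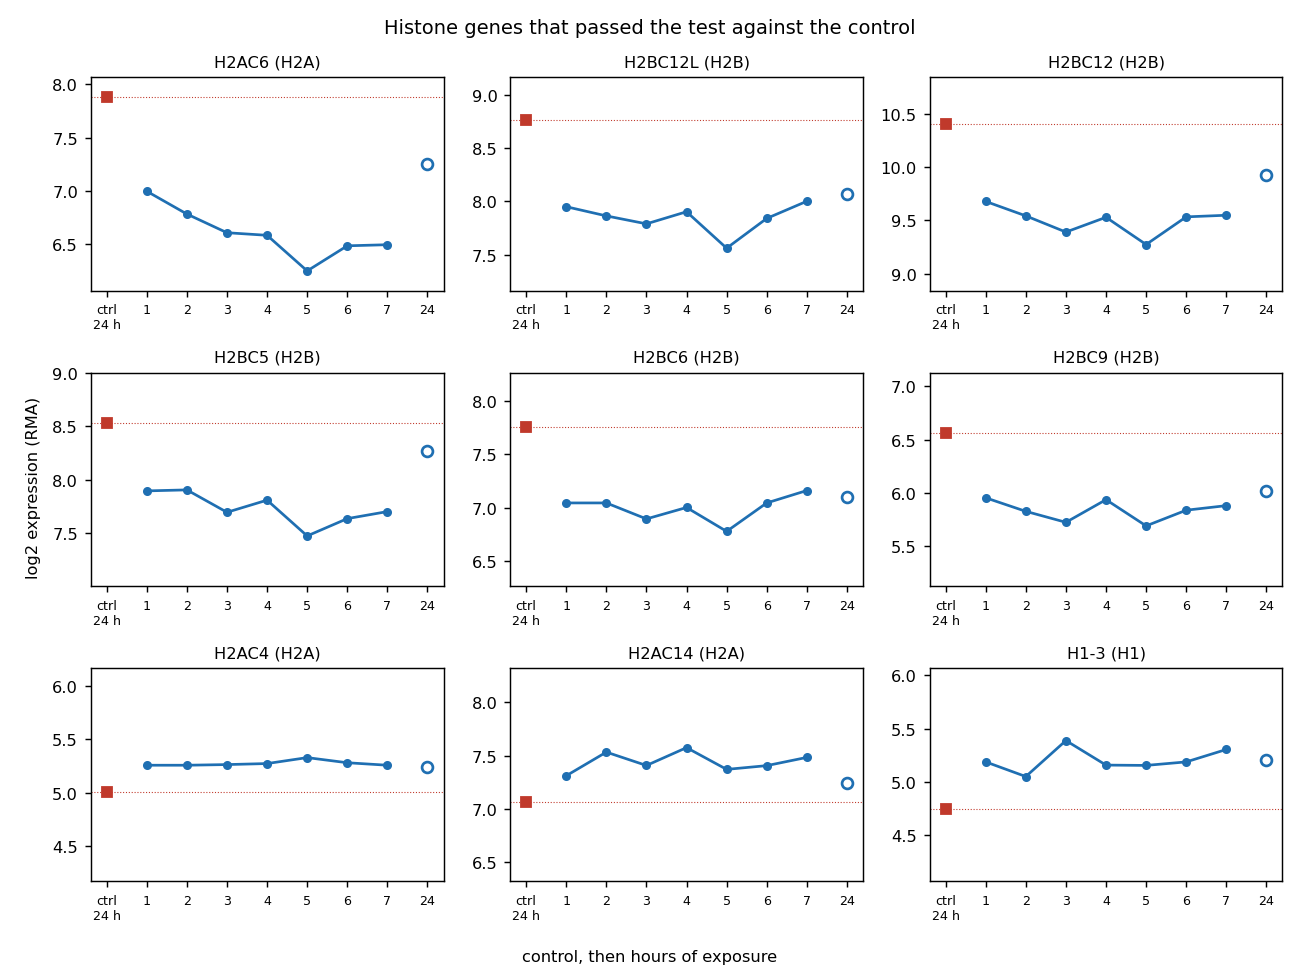
Log2 expression of the 9 histone genes that passed the test, in the control array at 24 h (square, with a dotted line at its level), the arrays of 1 to 7 h of exposure (filled points) and the 24 h exposed array (open point). Each panel spans 2 log2 units; in the first 6 panels every exposed array lies below the control, and in the last 3 every one lies above it.

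H2BC21, the only tested H2B gene of chromosome 1, differed from the other 5. It had 5.83, 5.85, 5.38, 5.25, 4.94, 5.48 and 5.37 over 1 to 7 h and 5.33 at 24 h, against 5.73 in the control. The arrays of 1 and 2 h lay above the control and the others below, and the mean did not pass (-0.29 ± 0.23; limma adjusted p = 0.449).

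Of the genes that were higher, H1-3, a linker histone gene, had 5.19, 5.05, 5.39, 5.16, 5.16, 5.19 and 5.30 over 1 to 7 h and 5.20 at 24 h, against 4.75 in the control (0.46 ± 0.11; limma adjusted p = 0.0316). H2AC14 had 7.31, 7.53, 7.41, 7.57, 7.37, 7.41 and 7.48 and then 7.24 at 24 h, against 7.07 in the control (0.37 ± 0.10; limma adjusted p = 0.0451). H2AC4 lay between 5.26 and 5.33 on the hourly arrays and at 5.24 at 24 h, against 5.01 in the control (0.27 ± 0.07; limma adjusted p = 0.0330). All 8 exposed arrays were above the control for these 3 genes, by small amounts, and H1-3 and H2AC4 are close to the minimum level of the test. These calls were less firm than those of the lower genes. H1-3 did not pass without the 1, 4 or 7 h array (limma adjusted p = 0.0505 to 0.0559, differences 0.44 to 0.46), H2AC14 without the 2, 3, 4, 6 or 7 h array (0.0590 to 0.0784, differences 0.35 to 0.38) and H2AC4 without the 1, 2, 3 or 4 h array (0.0530 to 0.0660, difference 0.27 each).

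Among the other tested members the replication-independent H1-10 had 8.31 to 8.67 over the hourly arrays and 8.26 at 24 h, against 8.70 in the control (-0.17 ± 0.11; limma adjusted p = 0.347). H1-2, a main somatic linker histone gene, had 7.16 to 7.55 and 7.01 at 24 h, against 7.10 in the control (0.26 ± 0.14; limma adjusted p = 0.243). H2AC25, the H2A gene of the small chromosome 1 cluster, had 8.33 to 9.05 and 8.85 at 24 h, against 8.86 in the control (-0.12 ± 0.17; limma adjusted p = 0.698). The H1 gene H1-6, which is known from testis, lay at 4.93 to 5.24 and 5.03 at 24 h, against 4.92 in the control.

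None of the 5 tested H3 and H4 genes passed. Probe sets that several H3 or H4 genes share were not tested, and they differed among themselves. Some lay further from the control, at -0.87 for a probe set of 10 H3 genes and 0.74 for a probe set of 14 H4 genes. Others lay near it, at 0.14 for a dim second probe set of 10 H3 genes and 0.09 for another of 14 H4 genes. H3C8 (0.13 ± 0.09) and H3C3 (0.14 ± 0.08) lay slightly above 0, and H4C9 (0.08 ± 0.11), H4C11 (-0.01 ± 0.15) and H4C5 (-0.06 ± 0.14) on either side of it, with limma adjusted p between 0.284 and 0.988. The sign of H4C11 differed among the alternatives run (-0.04 to 0.07). By family the median difference was 0.22 for 4 H1 genes, 0.15 for 5 H2A genes, -0.78 for 6 H2B genes, 0.14 for 2 H3 genes and -0.01 for 3 H4 genes.

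**Figure D3:**
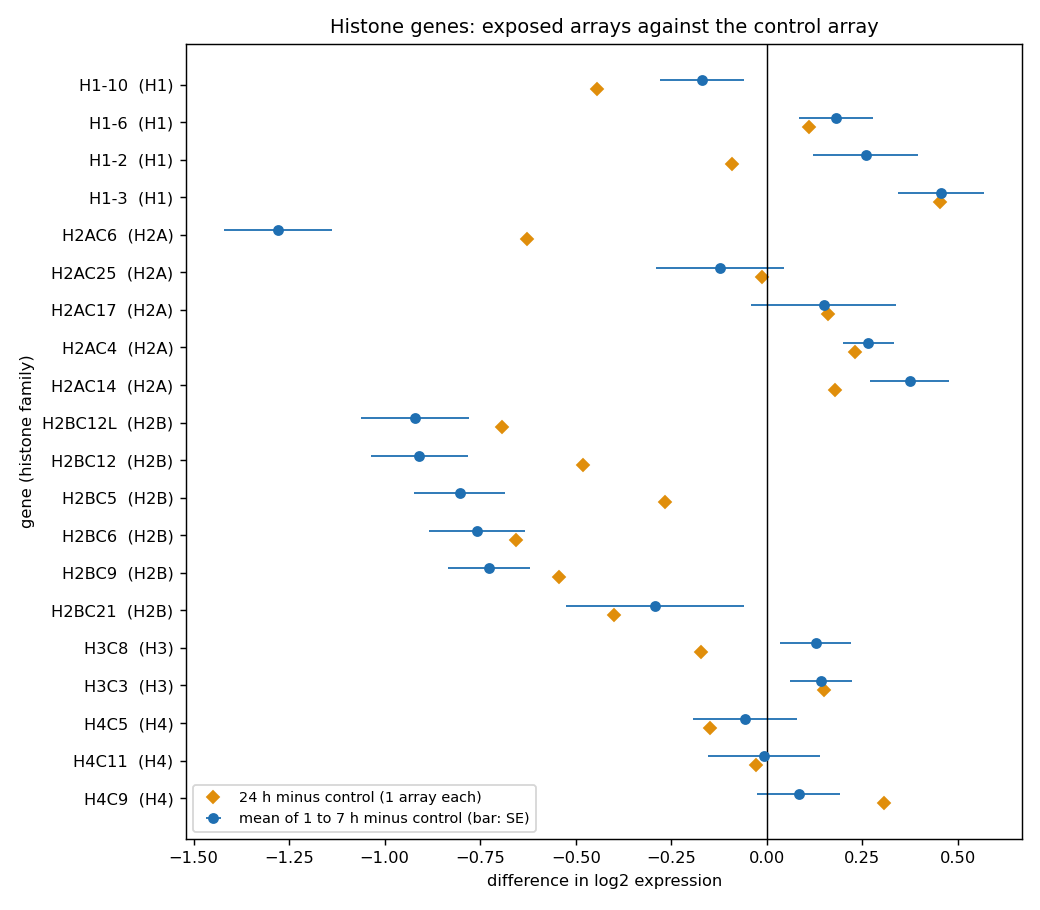
Difference in log2 expression from the control array for the 20 tested histone genes, ordered by family. Circles give the hourly mean (1 to 7 h) less the control, with its SE. Diamonds give the 24 h array less the control, without an error. In the hourly mean 6 genes lie between -1.28 and -0.73, and all 6 are nearer to 0 at 24 h. They were chosen by that hourly mean, and none of them passed in limma's test of 24 h against it.

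All exposed arrays lay on 1 side of the control for 12 of the 20 tested members, 7 below it and 5 above. Over all genes tested the shares were 24.1% below and 21.0% above. The 7 below were the 6 lower genes and H1-10, and the 5 above were H1-3, H1-6, H2AC4, H2AC14 and H3C3. Among the 30 members under the minimum, 4 lay below the control in all exposed arrays and 8 above it, where 6.81% and 26.4% of all genes of such level did. The difference of their hourly mean ran from -0.64 (H2BC4) to 0.43 (H3C2), with a median of 0.05.

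The back-to-back pairs could be compared where each gene had a probe set annotated to it alone, which was so for 4 pairs. Such a probe set may still read other genes, and those of H2AC6 and H2AC14 carry the suffixes _s_at and _x_at. H2AC6 and H2BC4 were both below the control, by -1.28 and -0.64. In the pair of H2AC14 and H2BC14 the differences were 0.37 and 0.02, in that of H2AC17 and H2BC17 0.15 and 0.04, and in that of H2AC15 and H2BC15 -0.25 and 0.02. The H2B partner had a mean under 5 in each of these pairs.

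The second comparison set the 24 h exposed array against the control of the same hour, with 1 array on each side and no test. None of the 20 members was at least 2-fold apart, where 0.468% of all genes tested were higher and 0.693% lower by that much. At 1.5-fold H2BC12L (-0.69), H2BC6 (-0.66) and H2AC6 (-0.63) were lower, 3 of 20 members against 3.43% of all genes, and none was higher, against 3.15%. The other 3 genes of the lower group were at -0.54 (H2BC9), -0.48 (H2BC12) and -0.27 (H2BC5). H1-10 stood at -0.44 and H2BC21 at -0.40, while H1-3 was the highest at 0.45, followed by H4C9 at 0.31. The median over the 20 members was -0.12, against 0.02 over all genes.

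The 6 genes of the lower group were at least 1.5-fold below the control at each hour from 1 to 7 h. They were the only members that far below, 6 of 20, except at 5 h, where H2BC21 made it 7 of 20. The group was chosen by the mean of these same arrays less this control, so the hours are not separate support for it. Of all genes tested 3.31%, 3.86%, 3.37%, 3.17%, 5.35%, 3.39% and 4.93% were that far below, in the order of the hours. The median of the 6 H2B genes, as a log2 difference from the control, was -0.67, -0.72, -0.85, -0.74, -1.02, -0.80 and -0.72 over 1 to 7 h, and -0.51 at 24 h. The difference was thus present in the first array, and it was smallest in the last. These 8 differences share the control array.

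The third comparison set 24 h against the mean of 1 to 7 h, which uses no control array. None of the 20 members passed in limma's test, although 6 had an unadjusted p under 0.05. Of all 12402 genes 0.00806% passed, and 15.7% had an unadjusted p under 0.05. H2AC6 was 0.65 ± 0.14 above the hourly mean at 24 h (7.25 against 6.60; limma adjusted p = 0.129), H2BC5 0.54 ± 0.12 (8.27 against 7.73; limma adjusted p = 0.129) and H2BC12 0.43 ± 0.13 (9.92 against 9.50; limma adjusted p = 0.184). On the other side H1-2 stood at -0.35 ± 0.14, H3C8 at -0.30 ± 0.09 and H1-10 at -0.27 ± 0.11 (limma adjusted p = 0.193 to 0.283). The order of control above 24 h above every hourly array, which does use the control, was found in 5 of the 20 members, against 4.72% of all genes tested. They were H2AC6, H2BC5, H2BC9, H2BC12 and H2BC12L. All 5 had passed as lower in the hourly mean of these same arrays against that control, so the order is not separate support.

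The fourth comparison asked whether histone genes moved during the exposure itself. For the slope over 1 to 7 h 0 of 20 members and 0% of all genes passed in limma's test, with unadjusted p under 0.05 for 4 members and for 15.7% of all genes. The most negative slopes were those of H2BC21 (-0.09 ± 0.04 per h; limma adjusted p = 0.329), H2AC6 (-0.09 ± 0.025 per h; limma adjusted p = 0.168) and H2AC25 (-0.07 ± 0.03 per h; limma adjusted p = 0.317). The most positive were H3C3, H3C8 and H1-2, at 0.03, 0.03 and 0.02 per h.

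Steps between neighbouring hours gave no calls either. From 1 and 2 h to 3 and 4 h, 0 of 20 members passed in limma's test, with 2 at an unadjusted p under 0.05, where 0% and 9.94% of all genes did. The means of 3 and 4 h against those of 1 and 2 h were 5.31 and 5.84 for H2BC21 (-0.52 ± 0.07; limma adjusted p = 0.330) and 6.60 and 6.89 for H2AC6 (-0.29 ± 0.08; limma adjusted p = 0.383). The arrays of 3 and 4 h were both below those of 1 and 2 h for each of these genes. H4C5 had the most positive step, at 0.24 ± 0.11. For 6 and 7 h against 3 and 4 h, 0 of 20 members passed, 0 at an unadjusted p under 0.05, and the differences ran from -0.21 (H1-10) to 0.15 (H2BC6), where 0% and 4.97% of all genes did.

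**Figure D4:**
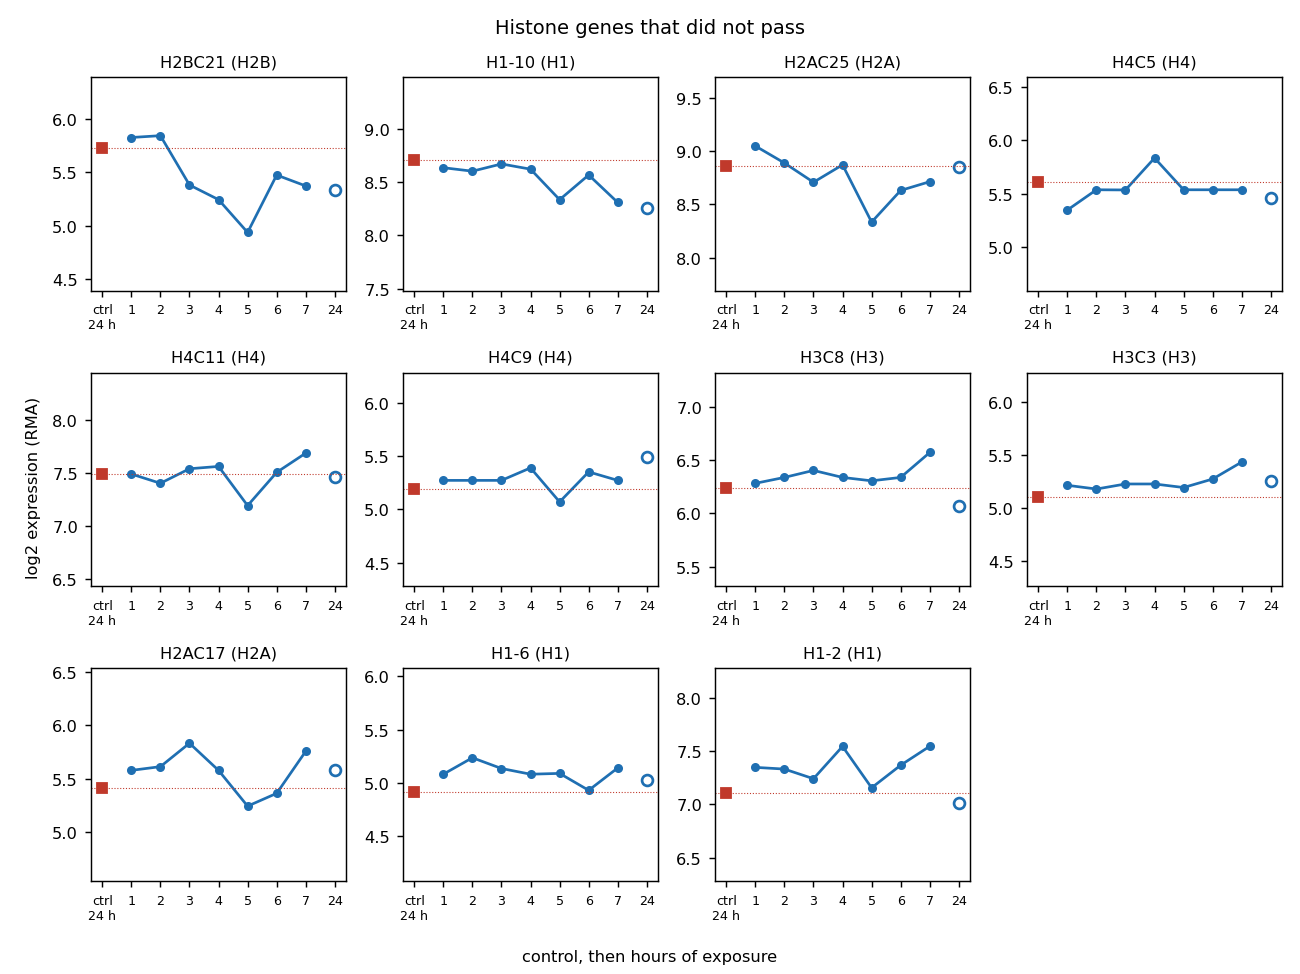
Log2 expression of the 11 tested histone genes that did not pass against the control, drawn as for the 9 that did: control array at 24 h (square, ctrl), 1 to 7 h of exposure (filled points) and 24 h (open point), with 2 log2 units in each panel. H2BC21 is above the control at 1 and 2 h and below it from 3 h on.

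Genes that make and handle histone messages were next. Of 21 tested genes of histone message processing and transcription, 0 passed as higher and 1 as lower in the hourly mean against the control, where 5.85% and 8.02% of all genes did. That was UPF1, a helicase of message decay that also acts on histone messages (-0.37 ± 0.10; limma adjusted p = 0.0468). SLBP had 10.68 to 10.99 over 1 to 7 h and 10.60 at 24 h, against 10.73 in the control, NPAT 8.39 to 8.49 and 8.44, against 8.42, and CASP8AP2, which brings the processing machinery together, 8.58 to 8.93 and 8.65, against 8.79. None of these 3 passed. The list's median was 0.00, against -0.01 over all genes tested. Of 14 genes of polyadenylation and the nuclear exosome ZC3H18 passed as lower (-0.35 ± 0.08; limma adjusted p = 0.0294) and none as higher.

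Of 26 histone chaperones and import factors, 5 passed as lower and 1 as higher, where 8.02% and 5.85% of all genes did. HJURP, the chaperone of CENPA, was lower by 0.73 ± 0.13 on the log2 scale (limma adjusted p = 0.00912), ASF1B, an H3 and H4 chaperone, by 0.44 ± 0.08, and TONSL, which reads new histones behind the replication fork, by 0.44 ± 0.07. CDAN1 (-0.43 ± 0.09) and the H2A and H2B chaperone NAP1L4 (-0.38 ± 0.09) were also lower, while NAP1L1, of the same family, was higher (0.45 ± 0.07; limma adjusted p = 0.00479). The list's median was -0.10.

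Of 8 tested replication-independent histone variants CENPA, the centromeric H3, was lower (-0.64 ± 0.07; limma adjusted p = 0.00153), as was H2AX, the H2A variant of the DNA damage response, whose gene makes both stem-loop and polyadenylated messages (-0.62 ± 0.11; limma adjusted p = 0.00782). H2AX had 9.80 to 10.33 in hourly arrays and 9.85 at 24 h, against 10.77 in the control. H2AZ1 (12.95 to 13.13 and 12.93, against 13.07) and H2AJ (11.31 to 11.50 and 11.32, against 11.27) did not pass. In this list 2 of 8 genes passed as lower and 0 as higher, where 8.02% and 5.85% of all genes did.

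Of the cell cycle lists, that of G2/M was lower in the same comparison and most S phase genes did not pass. Over all genes tested 8.02% passed as lower and 5.85% as higher. Of 22 G2/M genes 21 passed as lower and 0 as higher, with a median of -0.76, among them the cyclin gene CCNB1 (-0.75). Of 21 genes of S phase entry 2 passed as lower, POLA1 (-0.46 ± 0.12), a subunit of the priming polymerase, and TYMS, of thymidylate synthesis (-0.33 ± 0.08), and 0 as higher, with a median of -0.10. CCNE2, the cyclin of S phase entry, had 8.67 to 9.39 over 1 to 7 h and 8.42 at 24 h, against 8.79 in the control, and PCNA, the replication clamp, 11.96 to 12.32 and 11.93, against 12.28. Neither passed. The median step of the S phase list from 1 and 2 h to 3 and 4 h was 0.21, where that of the 6 H2B genes was -0.12. From 3 and 4 h to 6 and 7 h the medians were 0.07 and 0.08. No gene of either list passed in either step. At 24 h against the hourly mean the median of the S phase list was -0.39 (-0.73 to -0.075). That of the 6 H2B genes was 0.21 (-0.11 to 0.54), and no gene of either list passed there. The part of the cell cycle in the histone differences was not tested.

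**Figure D5:**
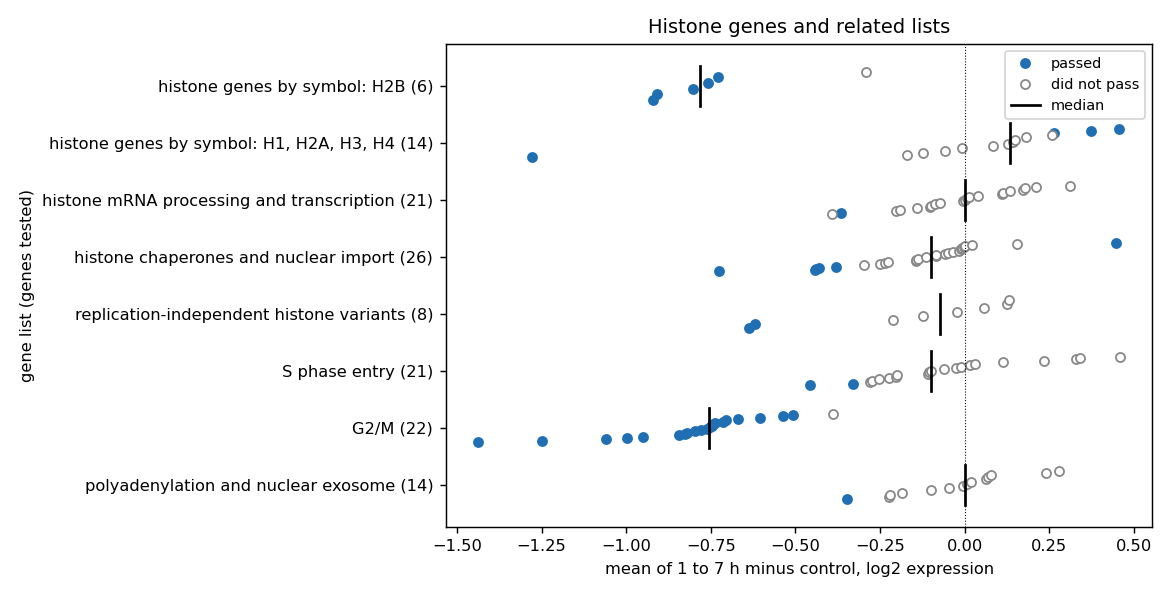
Hourly mean (1 to 7 h) less the control, in log2 expression, for the tested H2B genes, the other tested histone genes and the genes of 6 related lists. Filled points passed the test, open points did not, and the bar is the median; the medians of the H2B genes (-0.78) and of the G2/M genes (-0.76) are the lowest, and the other medians lie near 0.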

How the data were processed

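RNA of 9 samples was hybridised to Affymetrix arrays, 1 array a sample. The deposited log2 values were made by the authors with RMA, per the submitters' processing notes, with no version given. They were used without further normalization. A second deposited table holds the same log2 values for 6370 probe sets chosen by an unstated rule.

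Probe sets with 1 symbol (41097) were named through the platform annotation of their array, with symbols updated by Entrez ID for 41043; 1801 with several symbols and 11777 with none were left out. The 12402 genes whose mean reached 5 were fitted with limma 3.58.1 in R 4.3.3 (lmFit, eBayes, two-sided, Benjamini-Hochberg over all of them, threshold 0.05). One model held the centred hour and indicators of the 24 h and control arrays; the other held bins of 1 and 2, 3 and 4, and 6 and 7 h, with the 5 h array on its own. The hourly arrays give the spread, with 5 and 3 residual degrees of freedom, and the lone arrays are assumed to vary likewise. Nothing says that the arrays come from separate cultures, so the spread behind the p-values may be technical. The number of arrays limits the precision.

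Any tested member could be named, and in other lists the genes that passed, up to 6, besides SLBP, NPAT, CASP8AP2, CCNE2, PCNA and CCNB1. Of the members under 5, H2BC4, H2BC14, H2BC15, H2BC17, H2AC15 and H3C2, and in other lists COL1A2, COL3A1, LUM, POSTN, KRT8, KRT18, VIM, CD44, EPCAM, ACTA2, DCN, PTPRC, H2AZ1 and H2AJ, were named after their values were seen. The members and lists were chosen with earlier results of these data known. The fits were tested on simulated data. Python 3.11.15, pandas 2.3.3, numpy 2.4.6 and matplotlib 3.10.9 were used.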

Additional observations from a re-analysis of the deposited data

Results flagged for a closer look

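A probe set annotated to 14 H4 genes, which belongs to no gene alone and so entered no comparison, had a signal above the control on all 8 exposed arrays. Its log2 level was 9.63 to 10.54 over the hourly arrays, highest at 7 h, and 9.88 at 24 h, against 9.21 in the control, and the mean of the hourly arrays was 0.74 above the control. The 4 other probe sets annotated to 14 H4 genes did not go one way, with hourly mean differences of 0.09 on one with a mean of 7.40 and of -0.58, 0.07 and 0.32 on dim ones with means of 3.75, 2.63 and 3.59. The one at -0.58 was below the control on all 8 exposed arrays. The differences among these probe sets were not tested.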

How the results depend on the processing

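The number of histone genes that passed against the control was 9, and it was 8 with an intensity trend and robust estimation, with the arrays shifted to 1 median or with no minimum level (with H2BC4 as a lower gene), 6 with a minimum of 6, and 9 with probe sets averaged per gene, with another quantile normalization or without the hour as a term. It was 6 to 9 when each hourly array in turn was left out. H2AC6, H2BC12, H2BC12L, H2BC5 and H2BC6 passed as lower in all of these, and H2BC9 in all but the fit with the minimum of 6, where it was not tested. Only 1 gene passed in the authors' filtered table, H2AC6, since that table holds 3 members with a mean of at least 5 (H1-10, H2AC6 and H2BC21); its median difference over all genes was -0.12, against -0.01. Besides the losses given above, H2AC14 did not pass with no minimum or with the arrays shifted to 1 median (limma adjusted p = 0.0565 to 0.0696), nor H2AC4 with no minimum or with trend and robust estimation (0.0639 to 0.0844). The share of all genes that passed rests on single arrays, with 1721 genes in all, 2889 when the array of 5 h was left out, 1080 for that of 3 h and 1119 for that of 4 h. For 24 h against the hourly mean, the slope and both steps 0 members passed in limma under each alternative run, and leaving out each hourly array gave 0 to 0. At 24 h against the control 0 members were 2-fold apart under each alternative, and 3 at 1.5-fold. No paired analysis was possible because each group holds 1 array. Dim probe sets limit what can be said of 30 of the 50 members.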

Other observations

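Of 20 histone probe sets annotated to several genes, 10 had a mean of at least 5, and none of them entered a test. A probe set of 6 H2A genes of chromosome 6 showed the largest difference, with 5.43 to 6.12 over the hourly arrays and 6.32 at 24 h, against 7.71 in the control. Its hourly mean differed from the control by -1.95, which is further than that of any tested member. A second probe set of 6 H2A genes of chromosome 6 differed by 0.15, with 7 of 8 exposed arrays above the control.

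A probe set of 10 H3 genes had 5.05 to 5.85 and 5.71 at 24 h, against 6.44 in the control. A dim one of 10 H3 genes (mean 3.75) differed by 0.14 in the hourly mean, with 7 of 8 exposed arrays above the control. The 3 probe sets of 5 H2B genes were below the control on all 8 exposed arrays, with hourly mean differences of -0.64 and -0.52 and, on the dim one with a mean of 4.06, -0.29. The 2 bright probe sets shared by H2A genes of chromosome 1 differed by -0.19 and -0.29. These values cannot be assigned to 1 gene.

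Probe sets of 1 gene did not always point the same way among dim members. For H3C6 the hourly mean differed from the control by 0.09 on the brighter and by -0.45 on the dimmer probe set, and for H4C8 by 0.09 and -0.32. For H1-7 it differed by -0.20 on the brightest probe set and by 0.24 and 0.27 on the others.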
